A study of Mus musculus with 59 samples.

Results

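Lithium was compared with vehicle in the prefrontal cortex of C57BL/6J mice heterozygous for Ank2 (HT). The members were the 20 RNA sequencing libraries labelled HT lithium (10 libraries, 5 from females and 5 from males) or HT vehicle (10 libraries, 5 from females and 5 from males), of 59 libraries in the series. All mice were taken at postnatal day 25, after 3 weeks of lithium or vehicle (days 3 to 24) that reached the pups through the mother's milk. The wild-type (WT) lithium and WT vehicle libraries, 10 each, had the same strain, age and route, and serve here to show whether a change in HT differed from that in WT. The labels give no dose, no litter and no description of the Ank2 allele, and they do not say that each library came from its own animal or litter. The p-values therefore measure the spread between these libraries, part of which may be technical.

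Lithium is a mood stabilizer that directly inhibits glycogen synthase kinase 3 (GSK3), which otherwise marks beta-catenin for destruction, and a group of magnesium-dependent phosphatases that recycle inositol. Beta-catenin that escapes destruction acts with TCF/LEF factors on target genes such as cyclin D genes and Axin2. Ank2 codes for ankyrin-B, an adaptor that ties ion channels, transporters and adhesion molecules to the spectrin skeleton of neurons, and it is a gene linked to autism.

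Ank2 (ENSMUSG00000032826, chromosome 3, 126921612 to 127499350 in GRCm38) had values of 18076, 19672 and 21947 in HT lithium libraries, given here and below as lowest, median and highest of 10, against 18538, 19648 and 21059 in HT vehicle libraries. These are the deposited values, estimated gene counts divided by a normalization factor, and 1 unit is close to 1 read. The log2 change was 0.034 ± 0.038 (SE), adjusted p = 0.66 by limma, so a change in Ank2 with lithium was not detected. The highest of the 20 libraries (21947) was below the lowest WT vehicle library (23284). The labels do not describe the allele, so by themselves they do not require this separation. Xist, transcribed from the inactive X chromosome, matched the labelled sex in every library.

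The 20 libraries had 29.6 to 35.9 M estimated reads (M for mega) and 22695 to 23484 genes with a value above 0. The 10 excitatory neuron markers summed to 178745 to 231687 in HT lithium libraries, against 160671 to 207835 in HT vehicle libraries, and no marker of excitatory neurons or of deep or upper cortical layers had a median of 0. The level of a gene list in a library, the mean log2 deviation of its genes from their means over all 59 libraries, set some libraries apart in 3 lists of markers. The 18 genes of olfactory bulb and Dlx interneurons had levels of -2.50, -0.13 and 0.20 in HT lithium libraries, against -1.73, 0.16 and 1.47 in HT vehicle libraries (lowest, median and highest). Their sums ran from 9282 to 21722 in HT lithium libraries, against 11163 to 42666 in HT vehicle libraries. All 18 had a negative log2 change, none was called, and none had a median of 0. The striatum list was at 1.61 in HT lithium male replicate 1 and at 1.45 in HT vehicle male replicate 2, and the myelin list was at -0.63 in HT lithium male replicate 2. In tissue of many cell types, fewer cells of a type and less RNA per cell cannot be told apart.

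A further library stood apart from its own group. The library labelled HT vehicle female replicate 1 had the value farthest from its group in 28 of 40 groups of values in which 1 library was outlying. The test between WT lithium and WT vehicle libraries passed 376 genes. Its log2 changes use no HT library, but its estimate of spread was shared with the HT libraries. For these genes, each HT library was placed by whether its value lay nearer the median of the HT lithium or of the HT vehicle libraries, itself left out. The share of genes nearer the lithium median was 64.6% for that library, 17.0% to 42.6% for the other 9 HT vehicle libraries, and 47.3% to 87.2% for the 10 HT lithium libraries. The library was kept where its label puts it, and results are also given without it. That choice was made after the values were seen.

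Of 16919 genes with a mean value of at least 10, 847 passed a Benjamini-Hochberg adjusted p under 0.05 between HT lithium and HT vehicle libraries, averaged over the sexes. These are 5.01% of the genes tested, and a gene that passed is said here to have risen or fallen. Values were higher with lithium for 465 genes (2.75%) and lower for 382 (2.26%). The split depended on the scaling: 321 higher and 585 lower when libraries were scaled to a common sum, and 594 higher and 270 lower when trends with transcript length and GC content were removed. Changes were small, with a median absolute log2 change of 0.21 among called genes and 12 of them over 2-fold. The median over all genes tested was -0.0048. Of the 847, 845 had the same sign in females and males. Without the library labelled HT vehicle female replicate 1, 1597 genes passed (9.44%), 845 higher and 752 lower, among them 835 of the 847. Calls numbered 356 and 427 without HT vehicle female replicates 4 and 3, 513 without HT lithium male replicate 4 and 536 without HT lithium female replicate 2. The plot of change against p for both genotypes shows the size of the changes.

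**Figure D1:**
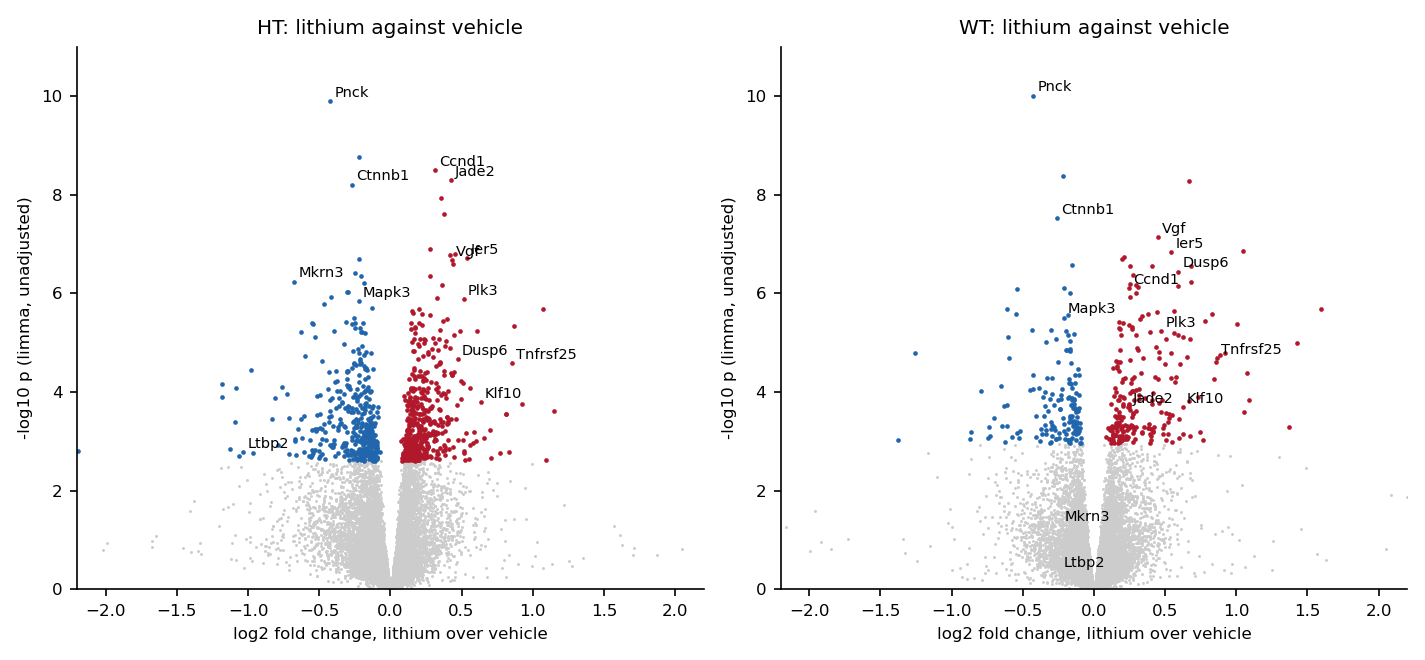
Log2 fold change of lithium over vehicle (x) against -log10 of the unadjusted limma p (y) for each of 16919 genes, in HT (left) and WT (right); red and blue points passed an adjusted p under 0.05, and 1 called gene in HT lies outside the x axis. Most called genes lie within 1 log2 unit of 0, and Pnck, Ctnnb1 and Mapk3 lie among the called falls in both genotypes.

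Pnck, the gene of smallest p, codes for a calcium/calmodulin-dependent protein kinase of the CaMKI family that is enriched in brain (ENSMUSG00000002012, chromosome X, 73655994 to 73660117). Its values were 1114, 1275 and 1532 in HT lithium libraries, against 1242, 1761 and 1882 in HT vehicle libraries. The lowest HT vehicle value, 1242, belonged to the library labelled female replicate 1, and the other 9 lay between 1659 and 1882, above all 10 HT lithium libraries. The log2 change was -0.42 ± 0.053 (SE), adjusted p = 2.1e-06. Of the 18 CaM kinase genes tested, Pnck was the only one called, against 5.01% of all genes called. Camk1g, another CaMKI gene and the next by p, had 0.16 ± 0.073 (SE), adjusted p = 0.18.

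Ctnnb1 codes for beta-catenin, the protein that GSK3 marks for destruction (chromosome 9, 120929216 to 120960507). Its mRNA was at 15191, 17125 and 18017 in HT lithium libraries, against 17083, 20298 and 22252 in HT vehicle libraries, a log2 change of -0.27 ± 0.039 (SE), adjusted p = 2.1e-05. Again the library labelled HT vehicle female replicate 1, at 17083, was the only HT vehicle library within the lithium range, and the other 9 were at 19587 or more. Mapk3, which codes for the MAP kinase ERK1 (chromosome 7, 126759601 to 126765819), fell too. It was at 3037, 3388 and 3732 in HT lithium libraries, against 3041, 4059.6 and 4247 in HT vehicle libraries (-0.22 ± 0.041 (SE), adjusted p = 0.00095), with 3041 in the library labelled HT vehicle female replicate 1 and 3859 to 4247 in the other 9. Pnck, Ctnnb1 and Mapk3 were also the only 3 genes called in the comparison within HT males.

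The mRNAs of lithium's direct targets did not pass the test, and the activity of these enzymes was not measured. Of 9 tested genes for enzymes that lithium inhibits, 0 were called by limma, and 7 had a positive log2 change. Over all genes 5.01% were called, and 0 of 9 is near that share. Gsk3b had values of 6599.7, 7646 and 8991 in HT lithium libraries, against 6632, 7035 and 8547 in HT vehicle libraries (0.11 ± 0.046 (SE), adjusted p = 0.17), and its log2 change was 0.14 (adjusted p = 0.035) without the library labelled HT vehicle female replicate 1. Gsk3a, the other GSK3 gene, had 0.052 ± 0.032 (SE), adjusted p = 0.37. Among the inositol phosphatases, Impa1 had 0.049 ± 0.035 (SE), adjusted p = 0.45, Impa2 had 0.14 ± 0.23 (SE), adjusted p = 0.78, and Inpp1 had 0.0032 ± 0.091 (SE), adjusted p = 0.99. Bpnt1 and Impad1, which code for phosphatases of adenosine bisphosphate, had log2 changes of 0.039 and -0.0019. The phosphoglucomutase genes Pgm1 and Pgm2 had 0.053 and -0.0042.

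Around GSK3, 4 of 52 tested Wnt and GSK3 signalling genes rose and 1, Ctnnb1, fell, with a median log2 change of 0.01, against 2.75% of all genes risen and 2.26% fallen. Ccnd1 and Ccnd2 code for cyclins D1 and D2, which are textbook targets of beta-catenin. Ccnd1 (chromosome 7, 144929931 to 144939925) was at 1616, 1851 and 2081 in HT lithium libraries, against 1374, 1487 and 1578 in HT vehicle libraries (0.31 ± 0.044 (SE), adjusted p = 1.8e-05). Its groups did not overlap: all 10 lithium libraries lay above all 10 vehicle libraries. Ccnd2 had 3036, 3522 and 4325 in HT lithium libraries, against 2546, 2895 and 3423 in HT vehicle libraries (0.28 ± 0.065 (SE), adjusted p = 0.0070), with 6 of 10 lithium libraries above every vehicle library. Dkk3, of the Dickkopf family of secreted Wnt modulators, rose by 0.26 ± 0.077 (SE), adjusted p = 0.035. The fourth, Wnt10a, a Wnt ligand gene, was named after its values were seen and changed by 0.44 ± 0.13 (SE), adjusted p = 0.036. Other beta-catenin targets, named likewise, were not called: Axin2 had 0.13 ± 0.052 (SE), adjusted p = 0.14, Lef1 had 0.17 ± 0.10 (SE), adjusted p = 0.35, and Nkd1 had 0.042 ± 0.066 (SE), adjusted p = 0.77.

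Of 35 tested genes of inositol metabolism, 2 rose and 0 fell, with a median log2 change of 0.03, a share near the 2.75% of all genes risen. Slc5a3 codes for the sodium-dependent transporter that brings myo-inositol into cells. It was at 771, 1072 and 1446 in HT lithium libraries, against 757, 846 and 1132 in HT vehicle libraries (0.35 ± 0.075 (SE), adjusted p = 0.0042), and 4 of the 10 lithium libraries, 3 of them from females, lay above every vehicle library. Cdipt codes for phosphatidylinositol synthase, which builds inositol into membrane lipid. It was at 3522, 3659 and 3935 in HT lithium libraries, against 2845, 3305 and 3516 in HT vehicle libraries (0.18 ± 0.040 (SE), adjusted p = 0.0064), and its groups did not overlap. Next by p were Pik3ca, the catalytic subunit of a phosphoinositide kinase (0.13 ± 0.041 (SE), adjusted p = 0.058), and Plcb1, a phospholipase C (0.16 ± 0.054 (SE), adjusted p = 0.065). Without the library labelled HT vehicle female replicate 1, 7 of the 35 rose, against 4.99% of all genes.

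**Figure D2:**
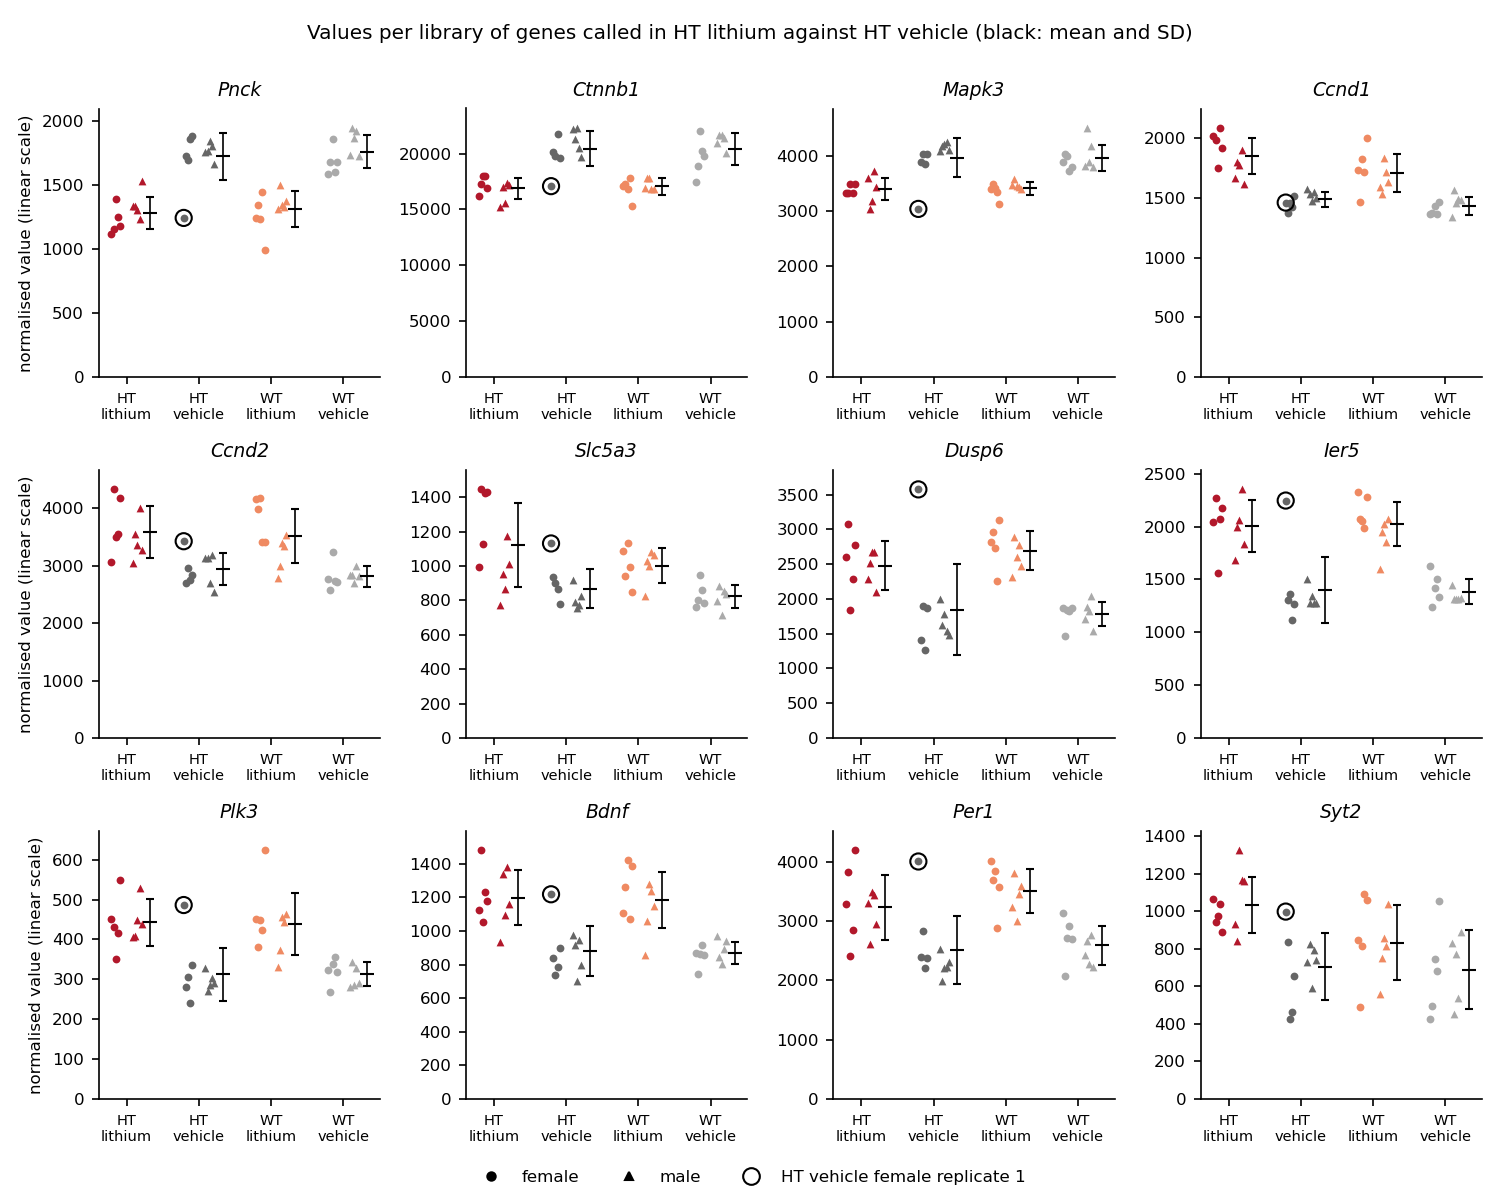
Normalised value (y, linear from 0) of 12 called genes in each library of HT lithium, HT vehicle, WT lithium and WT vehicle; circles are females, triangles males, black marks mean and SD of 10 libraries, and the ring marks the library labelled HT vehicle female replicate 1. That library lies within the lithium range, or beyond it, for 11 of the 12 genes, the exception being Ccnd1.

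Immediate early genes, which neurons switch on within minutes of activity, and genes induced downstream of ERK were followed in 6 lists. Of 69 genes in 5 early gene lists, 13 rose and 0 fell, and the median log2 change was 0.13. Of 15 ERK feedback genes, 6 rose and 0 fell, with a median of 0.20. The background is 2.75% of genes risen. Early gene lists together were at a level of -0.096 to 0.44 in HT lithium libraries, against -0.13 to 0.31 in HT vehicle libraries. The highest of the vehicle libraries was again the one labelled female replicate 1, at 0.31, and the other 9 were at 0.14 or less. Without it, 21 of 69 early genes and 7 of 15 ERK feedback genes rose, against 4.99% of all genes. Without HT vehicle female replicate 4, 7 early genes rose, and without HT lithium male replicate 4, 8 early genes and 3 ERK feedback genes did.

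The classical first responders were not among the 13. Fos, a subunit of the AP-1 factor, had 502, 929.6 and 1306 in HT lithium libraries, against 369, 594 and 1556 in HT vehicle libraries (0.42 ± 0.24 (SE), adjusted p = 0.31). Arc, an effector of synaptic scaling, had 1733, 5085 and 8546 in HT lithium libraries, against 1385, 2004 and 8341 in HT vehicle libraries (0.84 ± 0.30 (SE), adjusted p = 0.084). Both were chosen after their values were seen, and in both the groups overlapped widely. None of 9 AP-1 genes was called (median 0.25), against 5.01% of all genes. The smallest p was that of Atf3, a stress-induced member of the family (0.72 ± 0.27 (SE), adjusted p = 0.11). The transcription factor genes Nr4a3 and Egr3 rose: Nr4a3, an orphan nuclear receptor, was at 909, 1186 and 1786 in HT lithium libraries, against 604, 798 and 1259 in HT vehicle libraries (0.55 ± 0.17 (SE), adjusted p = 0.048). Egr3, a zinc finger factor, rose by 0.34 ± 0.093 (SE), adjusted p = 0.026, while Egr1 and Egr2 of the same family had 0.36 ± 0.14 (SE), adjusted p = 0.11 and 0.75 ± 0.29 (SE), adjusted p = 0.12. Without the library labelled HT vehicle female replicate 1, Arc had 1.03 (adjusted p = 0.017), Egr1 0.46 (adjusted p = 0.018) and Fos 0.55 (adjusted p = 0.14).

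The early genes of smallest p were Ier5 and Plk3. Ier5, an immediate early response gene, was at 1565, 2053 and 2352 in HT lithium libraries, against 1121, 1292 and 2246 in HT vehicle libraries (0.54 ± 0.089 (SE), adjusted p = 0.00027). In 9 HT vehicle libraries it lay between 1121 and 1499.8, below all 10 lithium libraries, and the library labelled female replicate 1 was at 2246. Plk3, a polo-like kinase, was at 349.8, 435 and 549.6 in HT lithium libraries, against 241, 297 and 486 in HT vehicle libraries (0.51 ± 0.094 (SE), adjusted p = 0.00088), with 486 in the same library. Klf10, a Krüppel-like repressor induced by TGF-beta, rose by 0.64 ± 0.16 (SE), adjusted p = 0.012. Gadd45b, a stress sensor that takes part in DNA demethylation, rose by 0.43 ± 0.10 (SE), adjusted p = 0.0055. Gadd45a, Ier3 and the clock gene Per1 completed the 6 of 18 called among Gadd45, Ier and Klf genes, against 2.75% of all genes risen. Their log2 changes were 0.38, 0.40 and 0.38. Arl5b, an Arf-like GTPase, was called beside Plk3 in its list (0.19 ± 0.055 (SE), adjusted p = 0.030). Ier5l, related to Ier5 but in none of these lists, was among the largest rises over all genes (0.51 ± 0.12 (SE), adjusted p = 0.0073).

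Some genes for secreted proteins that follow activity rose. Of 17 tested, 3 rose and 0 fell, with a median log2 change of 0.079, against 2.75% of all genes risen. Bdnf, the brain-derived neurotrophic factor, was at 937, 1171 and 1480.4 in HT lithium libraries, against 703, 869.5 and 1219 in HT vehicle libraries (0.45 ± 0.089 (SE), adjusted p = 0.0019). The library labelled HT vehicle female replicate 1, at 1219, was the highest of the vehicle libraries, and the other 9 reached 978. Vgf, a neuropeptide precursor induced by neurotrophins, was at 3989, 4639 and 5561 in HT lithium libraries, against 2981, 3488 and 4270.4 in HT vehicle libraries (0.43 ± 0.072 (SE), adjusted p = 0.00027). Of the lithium libraries, 8 lay above every vehicle library. Pcsk1, a convertase that cuts such precursors, rose by 0.28 ± 0.087 (SE), adjusted p = 0.045, and Nptx1, a pentraxin that clusters glutamate receptors, had 0.29 ± 0.10 (SE), adjusted p = 0.092.

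The 6 called ERK feedback genes code for proteins that are induced by ERK signalling, most of which limit it. With the 20 HT lithium and HT vehicle libraries fitted alone, 1 of the 15 tested genes of this list rose. Dusp6 codes for the phosphatase that inactivates ERK. It was at 1834, 2559 and 3069.9 in HT lithium libraries, against 1272, 1705 and 3574 in HT vehicle libraries (0.47 ± 0.10 (SE), adjusted p = 0.0038). Its highest value of all 20 was in the library labelled HT vehicle female replicate 1, and without that library the log2 change was 0.59 (adjusted p = 2.2e-06). Spry4, a Sprouty inhibitor of receptor tyrosine kinase signalling, rose by 0.47 ± 0.12 (SE), adjusted p = 0.013, and Etv5, an ETS factor, by 0.27 ± 0.067 (SE), adjusted p = 0.011. For Etv5, 8 of 10 lithium libraries exceeded every vehicle library. Spred2, an inhibitor of Ras and Raf signalling, rose by 0.26 ± 0.067 (SE), adjusted p = 0.019, and its relatives Spred1 and Spred3, named because the count is small, rose by 0.22 and 0.17.

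**Figure D3:**
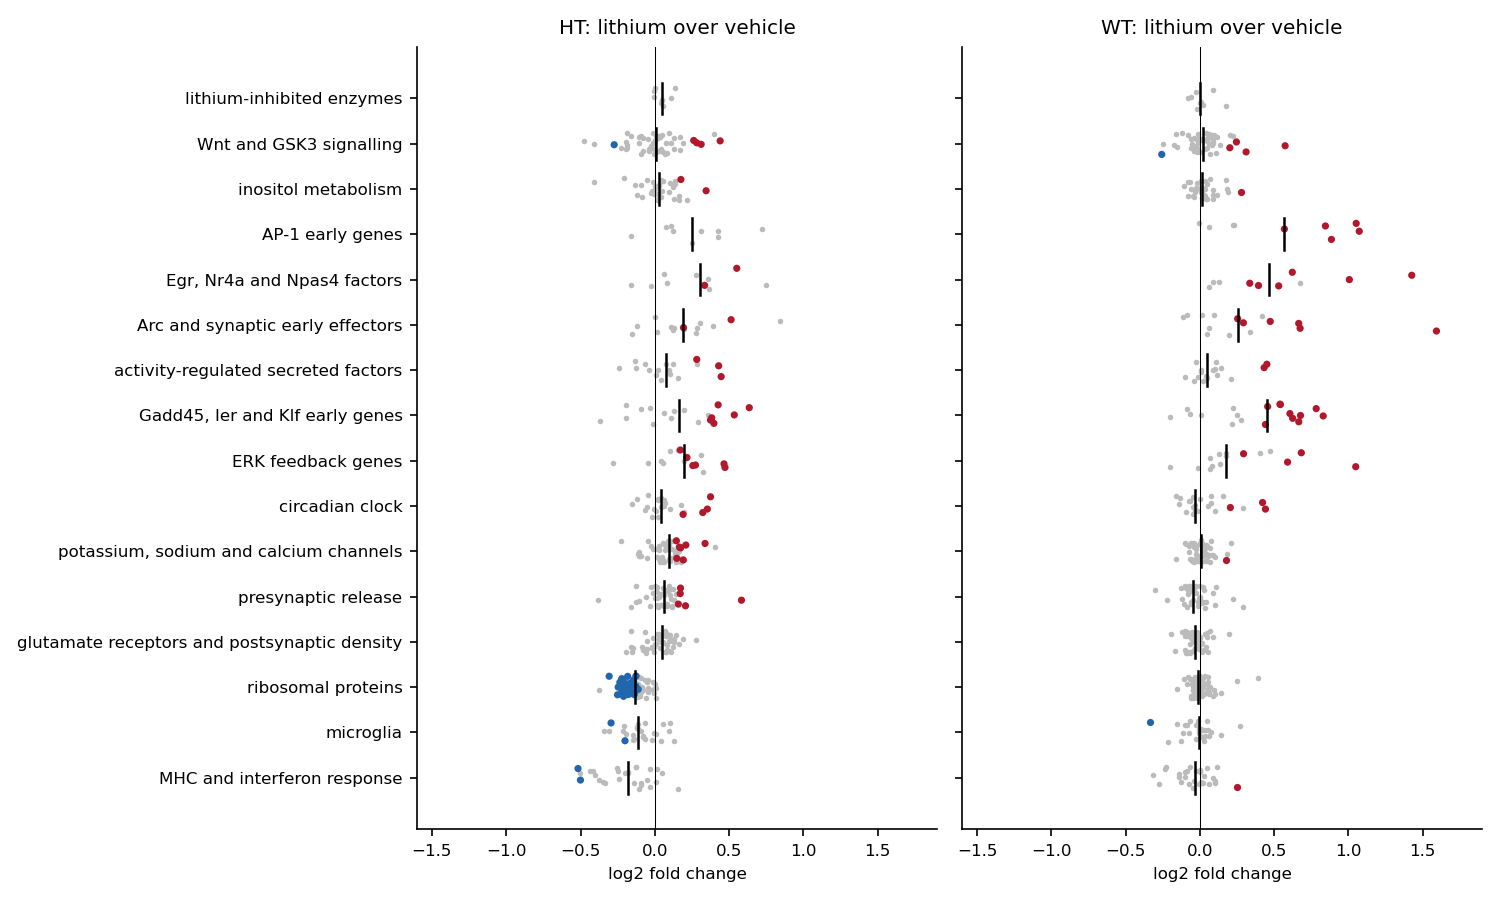
Log2 fold change of lithium over vehicle (x) for each tested gene of 16 lists (rows), in HT (left) and WT (right); red and blue points are genes called higher and lower, grey points are not called, and black bars are list medians. In HT, 32 of 78 ribosomal protein genes are called lower and none of 9 AP-1 genes is called, while in WT 0 ribosomal protein genes and 5 AP-1 genes are called. Over all genes, 2.75% are called higher and 2.26% lower in HT, and 1.33% and 0.892% in WT.

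Upstream sequences of called early genes were searched for 5 short motifs, on both strands of the 250 bases before the start, in RefSeq promoters of GRCm38.p6. The cAMP response element TGACGTCA stood in 2 of 17 promoters of the 10 called early genes that have an entry, against 2.42% of the 15599 promoters of genes tested and 1.55% of all 32851. The E-box CACGTG stood in 3 of the 17, against 7.8% of promoters of genes tested. Over all called genes, the E-box was in 11.4% of 456 promoters of genes higher with lithium and in 10.3% of 359 promoters of genes lower with lithium. AP-1 (TGACTCA), CArG and TCF/LEF (ATCAAAG) motifs stood in none of the 17, and in 3.19%, 1.21% and 2.22% of promoters of genes tested. A match describes these letters only. The windows that hold a match are shown with the motif in capitals, all on the plus strand: Pcsk1 at chr13:75089759-75089806, Arl5b at chr2:15055179-15055226 and chr2:15055199-15055244, Per1 at chr11:69098763-69098808 and Gadd45b at chr10:80929886-80929931.
Pcsk1, cAMP response element: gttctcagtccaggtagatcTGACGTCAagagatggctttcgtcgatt
Arl5b, cAMP response element: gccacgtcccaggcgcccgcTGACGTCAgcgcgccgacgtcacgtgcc
Arl5b, E-box: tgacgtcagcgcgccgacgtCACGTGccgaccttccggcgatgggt
Per1, E-box: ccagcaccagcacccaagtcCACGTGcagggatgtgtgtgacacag
Gadd45b, E-box: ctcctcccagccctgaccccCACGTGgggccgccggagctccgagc

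The clock genes Per1, Nr1d1, Bhlhe40 and Arntl rose, 4 of 23 tested, and 0 fell, against 2.75% of all genes risen. GSK3 is known to phosphorylate several clock proteins. Per1, a repressor of the clock that is also an early gene, was at 2409, 3292 and 4187 in HT lithium libraries, against 1986, 2338 and 4000.3 in HT vehicle libraries (0.38 ± 0.083 (SE), adjusted p = 0.0053). Nr1d1 codes for REV-ERB alpha, the repressor of Arntl, and was at 2576, 2862 and 3247 in HT lithium libraries, against 1877, 2294 and 3521 in HT vehicle libraries (0.32 ± 0.076 (SE), adjusted p = 0.0084). Bhlhe40, a repressor that binds E-boxes, rose by 0.35 ± 0.093 (SE), adjusted p = 0.020. Arntl codes for BMAL1, the activator of the clock, and rose by 0.19 ± 0.051 (SE), adjusted p = 0.022, with 7 of 10 lithium libraries above every vehicle library. For Per1, Nr1d1 and Bhlhe40, the library labelled HT vehicle female replicate 1 had the highest vehicle value, at 4000.3, 3521 and 4534, and the other 9 reached 2829, 2518 and 2599. The labels give no hour of tissue collection.

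Some ion channel and release genes rose in small steps. Of 56 tested genes for potassium, sodium and calcium channels, 7 rose and 0 fell, with a median log2 change of 0.095 and 46 positive, against 2.75% of all genes risen. Kcnc1 codes for Kv3.1, the channel that lets fast-spiking interneurons repolarise quickly. It was at 5639, 6143 and 6355 in HT lithium libraries, against 5032, 5424 and 6039.8 in HT vehicle libraries (0.17 ± 0.035 (SE), adjusted p = 0.0018). Kcna1, the axonal potassium channel Kv1.1, was at 1955, 2361 and 2595 in HT lithium libraries, against 1473, 1876 and 2180.5 in HT vehicle libraries (0.34 ± 0.085 (SE), adjusted p = 0.014), and 9 of 10 lithium libraries exceeded every vehicle library. Hcn2, a pacemaker channel, and Scn8a, the sodium channel Nav1.6 of axon initial segments, rose by 0.15 ± 0.036 (SE), adjusted p = 0.012 and 0.15 ± 0.043 (SE), adjusted p = 0.035. Kcnma1 and Kcns2, potassium channel genes named after their values were seen, rose by 0.17 and 0.19. Without the library labelled HT vehicle female replicate 1, 12 of the 56 rose, against 4.99% of all genes, 15 rose with the 20 HT lithium and HT vehicle libraries fitted alone, and leaving out any of 9 other libraries left 3 or 4: HT lithium female replicates 2 and 3 or male replicates 3 and 4, or HT vehicle female replicates 3 and 4 or male replicates 3, 4 and 5.

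Of 44 tested genes of presynaptic release, 5 rose and 0 fell (median 0.060), against 2.75% of all genes risen, and 2 rose with trends in length and GC content removed. Syt2, a fast calcium sensor of vesicle release, was at 844, 1009.5 and 1325 in HT lithium libraries, against 427, 735 and 999 in HT vehicle libraries (0.58 ± 0.17 (SE), adjusted p = 0.033). In 9 HT vehicle libraries it was at 838 or less, below every lithium library, and in the library labelled female replicate 1 at 999. Cplx1, a complexin that clamps vesicle fusion, rose by 0.17 ± 0.034 (SE), adjusted p = 0.0017, Bsn, the active zone scaffold Bassoon, by 0.21 ± 0.056 (SE), adjusted p = 0.022, and Unc13b, a vesicle priming factor, by 0.17 ± 0.052 (SE), adjusted p = 0.038. Pclo, the scaffold Piccolo, was the fifth (0.16). Of 50 genes for glutamate receptors and the postsynaptic density, 0 were called by limma, and Homer1 had the smallest p (0.28 ± 0.10 (SE), adjusted p = 0.075). Of 23 genes of inhibitory synapses, Gabbr1, a GABA-B receptor subunit, rose (0.092 ± 0.028 (SE), adjusted p = 0.042). Of the 44 presynaptic genes, 8 rose without the library labelled HT vehicle female replicate 1, against 4.99% of all genes. Without HT vehicle female replicate 3 or 4, 1 of the 44 rose, and 2 or 3 did without HT lithium female replicate 1, 2 or 4 or male replicate 2, 3 or 4, or without HT vehicle female replicate 2 or male replicate 3, 4 or 5. Excitatory neuron markers were higher beside these lists, with 10 of 10 positive and a median log2 change of 0.13, and their part in the result was not tested.

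Among genes tied to ankyrins, spectrins and the axon, 2 of 26 rose and 0 fell (median 0.054), against 2.75% of all genes risen. Dync1h1, the heavy chain of cytoplasmic dynein, rose by 0.29 ± 0.073 (SE), adjusted p = 0.013, with 0.52 in females and 0.059 in males. Dctn1, a dynactin subunit, rose by 0.084 ± 0.026 (SE), adjusted p = 0.050, and lost its call in 23 of 32 alternative settings of the processing. Ank3, which codes for ankyrin-G, the ankyrin of the axon initial segment, had 0.12 ± 0.041 (SE), adjusted p = 0.084. Of 55 tested autism risk genes, 1 rose and 1 fell, against 2.75% of all genes risen and 2.26% fallen. The rise was that of Dyrk1a, a kinase that primes GSK3 substrates (0.13 ± 0.038 (SE), adjusted p = 0.037), and the fall that of Ctnnb1.

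Many genes for ribosomal proteins, the building blocks of the translation machinery, fell. Of 78 tested, 32 fell and 0 rose, against 2.26% of all genes fallen, and the median log2 change was -0.14. Rpl15 was at 4070.1, 4875 and 5449 in HT lithium libraries, against 5035, 5695 and 6017 in HT vehicle libraries (-0.22 ± 0.037 (SE), adjusted p = 0.00027). Rps18 and Rpl10a fell too, with log2 changes of -0.25 ± 0.042 (SE), adjusted p = 0.00044 and -0.31 ± 0.055 (SE), adjusted p = 0.00071. Ribosomal protein genes have many processed pseudogenes, so the estimated counts may be split between copies. In females the median of the list was -0.22, with 41 genes fallen, against 2.35% of all genes. In males it was -0.066, with 0 fallen, against 0.0177% of all genes, so the male count is near that share. The level of the list was between -0.21 and -0.13 in all 5 HT lithium females, against -0.24 in the library labelled HT vehicle female replicate 1 and 0.081 to 0.19 in the other 4 HT vehicle females. In males it was 0.019 to 0.11 with lithium, against 0.10 to 0.17 with vehicle. Without the library labelled HT vehicle female replicate 1, 59 of the 78 fell, against 4.44% of all genes. Without HT vehicle female replicate 4, 19 did, among 167 genes fallen in all.

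Library composition was also measured beside the ribosomal list. The slope of a library's log2 deviations on log2 transcript length, over 10789 genes, was -0.0030 to 0.063 in HT lithium females and -0.034 to 0.075 in HT vehicle females, the highest of which was the library labelled replicate 1. In males it was -0.068 to -0.021 with lithium and -0.068 to -0.013 with vehicle. The difference of means was 0.046 in females (exact permutation test, two-sided, p = 0.12), -0.0012 in males (p = 0.93) and 0.022 in both (p = 0.13, permuted within sex). The difference in both was 0.032 (p = 0.028, same exact permutation test) when the library labelled HT vehicle female replicate 1 was left out. With trends in length and GC content removed, 16 ribosomal protein genes fell, among 270 genes fallen in all.

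**Figure D4:**
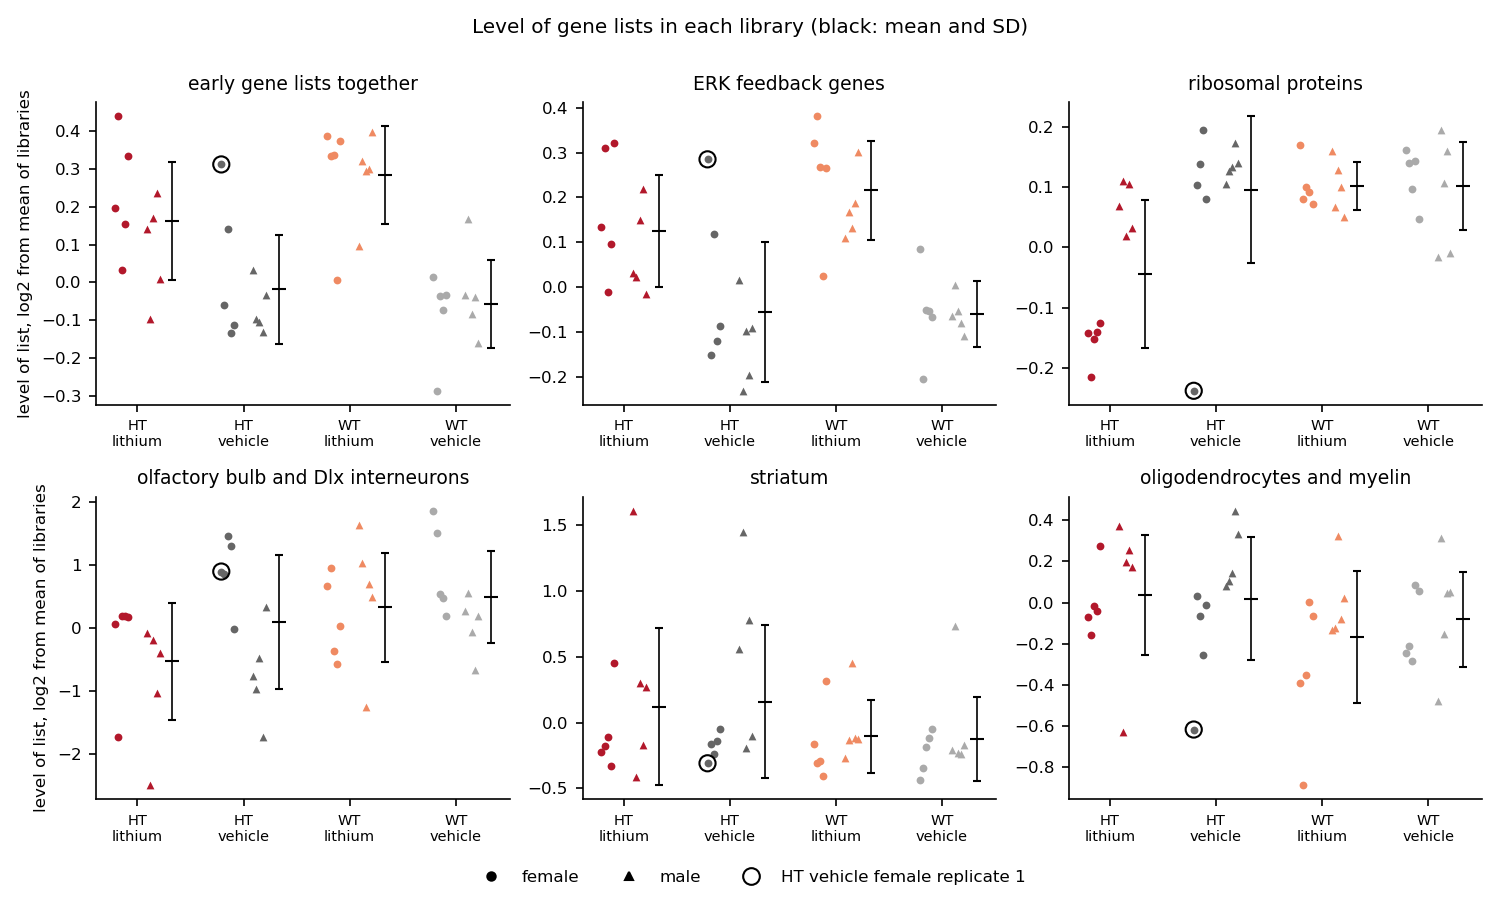
Level of 6 gene lists (y, mean log2 deviation from the mean of 59 libraries) in each library of HT lithium, HT vehicle, WT lithium and WT vehicle; circles are females, triangles males, black marks mean and SD of 10 libraries, and the ring marks the library labelled HT vehicle female replicate 1. The ribosomal list is at -0.13 or less in all 5 HT lithium females, and the ringed library, at -0.24, is the lowest of all.

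The 12 largest rises and 12 largest falls among called genes, taken from genes with a mean of at least 50, ranged from 0.51 up and from -0.50 down. Predicted genes, 3 among the rises and 5 among the falls, are not named. The largest rise was that of Tnfrsf25, a death receptor gene of the TNF receptor family. It was at 131, 233 and 391 in HT lithium libraries, against 85.4, 119 and 216 in HT vehicle libraries (0.85 ± 0.19 (SE), adjusted p = 0.0043). Serinc2, of a family of serine incorporators, rose by 0.59 ± 0.16 (SE), adjusted p = 0.025, Sowahb by 0.56 ± 0.16 (SE), adjusted p = 0.035, Ccdc163 by 0.53 ± 0.17 (SE), adjusted p = 0.049 and C1ra, a protease of the complement pathway, by 0.52 ± 0.16 (SE), adjusted p = 0.040. Klf10, Syt2, Nr4a3, Ier5, Plk3 and Ier5l, also among these rises, are described above. Ccdc163 was at 0.46 (adjusted p = 0.071) without the library labelled HT vehicle female replicate 1.

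Ltbp2, a protein of the extracellular matrix, had the largest fall, at 16.5, 31.1 and 83.6 in HT lithium libraries, against 25.8, 71.8 and 217 in HT vehicle libraries (-1.03 ± 0.31 (SE), adjusted p = 0.041). It was variable, and both groups overlapped. Mkrn3, an imprinted gene whose loss advances puberty, separated the groups: 55.5, 79.8 and 88.3 in HT lithium libraries, against 95.1, 111 and 168 in HT vehicle libraries (-0.67 ± 0.12 (SE), adjusted p = 0.00054). Angptl4, a secreted inhibitor of lipoprotein lipase, fell, with a log2 change of -0.81 ± 0.20 (SE), adjusted p = 0.010. Cd180, a receptor related to Toll-like receptors, was at 47.6, 57.8 and 74.6 in HT lithium libraries, against 61.7, 88.8 and 93.6 in HT vehicle libraries (-0.55 ± 0.11 (SE), adjusted p = 0.0016). Hvcn1, a proton channel of phagocytes, fell (log2 change -0.52 ± 0.12 (SE), adjusted p = 0.010), as did F13a1, a clotting factor subunit carried by macrophages, at -0.52 ± 0.13 (SE), adjusted p = 0.017, Cd1d1, a lipid antigen presenter, at -0.79 ± 0.23 (SE), adjusted p = 0.034, and Tnfrsf13b, a B cell receptor for TNF-like ligands, at -0.55 ± 0.15 (SE), adjusted p = 0.024. The others were Xaf1, given with the interferon genes, Fam71e1 (-0.53), Cyp1b1, a cytochrome P450 gene (-0.52), and Rassf10 (-0.50).

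Of 27 microglia genes, 2 fell and 0 rose (median -0.11), against 2.26% of all genes fallen. P2ry13, a nucleotide receptor of microglia, fell, at a log2 change of -0.29 ± 0.068 (SE), adjusted p = 0.0081, and Tyrobp, an adaptor of microglial receptors, at -0.20 ± 0.057 (SE), adjusted p = 0.031. P2ry12, another nucleotide receptor, had -0.19 ± 0.066 (SE), adjusted p = 0.074. Of 28 genes of antigen presentation and the interferon response, 2 fell, Xaf1 (-0.52 ± 0.14 (SE), adjusted p = 0.024) and Rsad2 (-0.50 ± 0.15 (SE), adjusted p = 0.046), both interferon-induced, and 24 of 28 had a negative change (median -0.18). Rsad2 was at -0.45 (adjusted p = 0.060) without the library labelled HT vehicle female replicate 1. Summed microglia markers were at 17318 to 22082 in HT lithium libraries, against 19657 to 23777 in HT vehicle libraries. Summed blood cell markers were at 17311 to 26919 in HT lithium libraries, against 20268 to 28588 in HT vehicle libraries, with 7 of 7 tested members negative and 1 called. The part of either cell type in these falls was not tested.

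Only 13 genes (0.0768% of those tested) had HT lithium libraries that did not overlap with HT vehicle libraries, 9 above and 4 below, and 12 of the 13 were called. They were, above, Inf2, Nefh, Ccnd1, Mpp3, Hs3st2, Cap2, Cntnap1, Cdipt and Zfp131, and, below, Cdc42se2, Rbm7, 5031425E22Rik and Mkrn3, all but Nefh, Ccnd1, Cdipt and Mkrn3 named for this separation after values were seen. Inf2, a formin that drives actin assembly, was at 3911, 4468 and 4986 in HT lithium libraries, against 2866, 3587 and 3834 in HT vehicle libraries (0.38 ± 0.057 (SE), adjusted p = 5.9e-05). Nefh, the heavy neurofilament chain of large axons, was at 1366, 1497 and 1816 in HT lithium libraries, against 945, 1209 and 1322 in HT vehicle libraries (0.37 ± 0.065 (SE), adjusted p = 0.00057). Without the library labelled HT vehicle female replicate 1, 77 genes (0.455%) did not overlap, 56 above and 21 below, among them Pnck, Ctnnb1, Mapk3, Ier5, Plk3, Vgf, Syt2 and Jade2.

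In WT mice, 376 genes passed between lithium and vehicle (2.22%), 225 higher (1.33%) and 151 lower (0.892%). The compared libraries are not shared with the HT comparison, but the estimate of spread is. Of the 465 genes higher in HT, 434 had a positive log2 change in WT, with a median of 0.11 in WT beside 0.20 in HT. Of the 382 lower in HT, 329 had a negative change in WT, with a median of -0.083 in WT beside -0.22 in HT. Choosing genes by their HT test raises their HT medians, so these medians do not compare the genotypes. Of the genes called in HT, 123 (14.5%) were called in WT in the same direction, which is 32.7% of those called in WT, and 0 were called in opposite directions. Among them, Pnck fell in WT as well (-0.43 ± 0.053 (SE), adjusted p = 1.6e-06), with 991, 1333 and 1502 in WT lithium libraries, against 1585, 1729 and 1941 in WT vehicle libraries. Ctnnb1 (-0.26 ± 0.039 (SE), adjusted p = 0.00013), Mapk3 (-0.21 ± 0.041 (SE), adjusted p = 0.0015), Ccnd1 (0.25 ± 0.044 (SE), adjusted p = 0.00060), Ccnd2 (0.31 ± 0.065 (SE), adjusted p = 0.0033), Vgf (0.45 ± 0.072 (SE), adjusted p = 0.00024), Bdnf (0.43 ± 0.089 (SE), adjusted p = 0.0032) and Dusp6 (0.59 ± 0.10 (SE), adjusted p = 0.00044) passed in WT with their HT sign.

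Of the 69 early genes, 13 had risen in HT, against 2.75% of all genes. In WT, 29 rose and 0 fell (median 0.23), against 1.33% of all genes risen. Arc, not called in HT, had 1.59 ± 0.30 (SE), adjusted p = 0.0013 in WT, and Fos had 1.07 ± 0.24 (SE), adjusted p = 0.0072. Ribosomal protein genes were not called in WT, 0 of 78 (median -0.012), a count near the 0.892% of all genes fallen in WT. These counts do not show that the genotypes differed. In the test of the difference itself, HT minus WT, 0 of 16919 genes passed by limma, the smallest adjusted p was 0.23, and 1139 genes had an unadjusted p under 0.05. For Arc the difference was -0.75 (adjusted p = 0.75) and for Rps18 -0.25 (adjusted p = 0.49). The 5 genes of smallest p in this test were Sat1, the enzyme that starts polyamine breakdown (HT -0.064, WT 0.31), Cops9, of the COP9 signalosome (-0.25 and 0.057), Rps18 (-0.25 and 0.0032), the predicted gene Gm10561 (-0.23 and 0.33), and Pimreg, tied to cell division (-1.18 and 0.36). Without the library labelled HT vehicle female replicate 1, 5 genes passed, all with a lower log2 change in HT than in WT. They were Tmem256, Rps18, Cops9, Rps14 and Sat1, with adjusted p from 0.0036 to 0.036. Tmem256 had -0.71 in HT females, -0.059 in HT males and 0.046 in WT. Sat1 had -0.081 in HT females, -0.073 in HT males and 0.31 in WT.

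**Figure D5:**
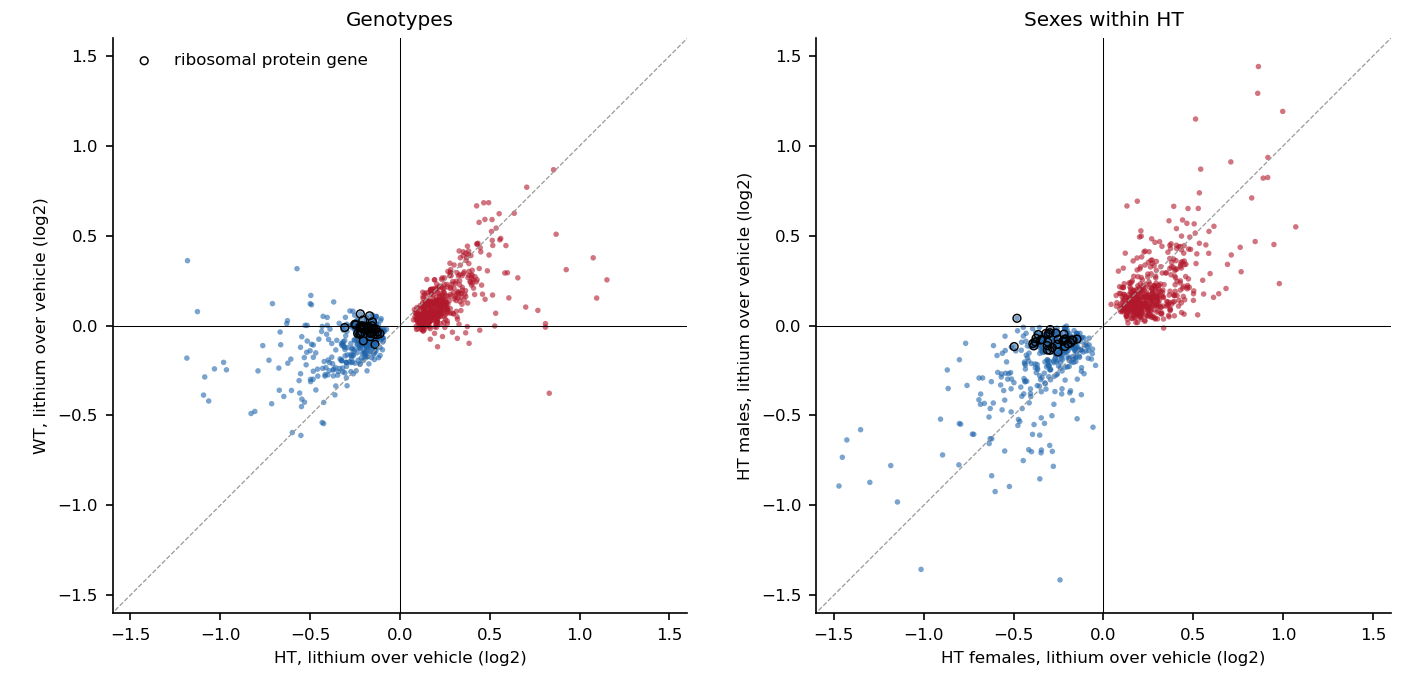
Log2 fold change of lithium over vehicle for the 847 genes called in HT: HT (x) against WT (y) on the left, HT females (x) against HT males (y) on the right; red and blue mark genes higher and lower in HT, open circles ribosomal protein genes, and the dashed line equal change. Outside the axes lie 2 genes on the left and 3 on the right; 434 of 465 red and 329 of 382 blue points have the same sign in WT. Over all 78 tested ribosomal protein genes, the median was -0.14 in HT and -0.012 in WT, -0.22 in HT females and -0.066 in HT males.

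Lithium was also compared with vehicle within each sex of HT mice. In females 753 genes passed (4.45%), 355 higher (2.1%) and 398 lower (2.35%). The level of the 18 olfactory bulb and Dlx interneuron genes was -1.73 to 0.20 in HT lithium females, against -0.0095 to 1.47 in HT vehicle females, with a median log2 change of -0.93 in females and -0.13 in males. With levels of these and of the striatum and oligodendrocyte markers as covariates, an alternative added after the data were seen, 750 genes passed in females, 517 of them among the 753. In males 3 passed (0.0177%), 0 higher and 3 lower, with 1487 genes at an unadjusted p under 0.05. The test of the difference, males minus females, called 0 genes by limma (smallest adjusted p = 0.069, 1381 at an unadjusted p under 0.05). Genes called over both sexes had a median log2 change of 0.25 in females and 0.16 in males where higher, and of -0.29 in females and -0.15 in males where lower. Pnck fell in both sexes, with log2 changes of -0.45 ± 0.075 in females and -0.39 ± 0.075 in males (SE, adjusted p = 0.00037 and 0.021). Ctnnb1 changed by -0.18 ± 0.056 in females and -0.36 ± 0.056 in males (adjusted p = 0.045 and 0.00048), and Mapk3 by -0.15 ± 0.058 and -0.30 ± 0.058 (adjusted p = 0.13 and 0.021).

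The 5 genes of smallest p in the difference between sexes were Rpl27, a ribosomal protein (females -0.48, males 0.040), Nectin1, an adhesion molecule (0.45 and -0.15), Acsl3, an acyl-CoA synthetase (0.41 and -0.081), Eif3b, a translation initiation factor (0.21 and -0.083), and Elob, elongin B (-0.23 and 0.068). The rises of smallest p in males were Jade2, a subunit of a histone acetyltransferase complex, at 0.40 (adjusted p = 0.069), Kcnc1 at 0.23 (adjusted p = 0.069) and Ier3, an early gene, at 0.67 (adjusted p = 0.072). The library labelled HT vehicle female replicate 1 lies among the female controls. Without it, 1669 genes passed in females (9.86%) and 29 in males (0.171%), where only the shared estimate of spread had changed, and 21 genes passed in the difference between sexes, 17 of them with a higher log2 change in males. Calls in females numbered 192, 286 and 391 without HT vehicle female replicates 4, 3 and 2, and 341, 429 and 486 without HT lithium female replicates 2, 5 and 4. In males, 1 gene was called without HT lithium male replicate 3 or HT vehicle male replicate 3 or 4, 5 without HT lithium male replicate 2, HT vehicle female replicate 4 or HT vehicle male replicate 2, and 7 without HT vehicle male replicate 1. Between the sexes, 1 gene was called without HT lithium female replicate 1 or 2, HT vehicle female replicate 5 or HT vehicle male replicate 2, and 2 without HT lithium male replicate 4. Among the 21 genes called without HT vehicle female replicate 1 were Rpl27, Rpl22l1, Rps18, Rpl18, Rpl34, Rpl26 and Rps25.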

How the data were processed

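RNA from prefrontal cortex was sequenced after a TruSeq Stranded mRNA preparation, per the labels. The authors deposited 1 table of signal, which here means estimated gene counts divided by a normalization factor, for 51456 Ensembl identifiers and 59 libraries. Salmon 0.11.2, R 3.6.0 and DESeq2 1.19.11 with build GRCm38 are named in the submitters' processing notes, and the settings are not given in the sources used here. Low values were whole multiples of 1 step in 28.3% to 66.8% of cases (tolerance 0.1 steps), so read counts were not recovered and no count model was run. Identifiers without a gene model held 0.0033% of the summed values.

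Values were analysed as log2(value + 1), which understates changes of low genes, for 16919 genes with a mean of at least 10. The linear model held 12 group means for 59 libraries and left 47 residual degrees of freedom. It was estimated by limma 3.58.1 under R 4.3.3 (trend and robust options), with effects averaged over the sexes, two-sided tests and Benjamini-Hochberg adjustment over all genes. The fit was tested on simulated data. It held HT fluoxetine female replicate 2, in which choroid plexus markers were at a level of 5.73 and dentate gyrus markers at 3.14. With the 20 HT lithium and HT vehicle libraries fitted alone, 973 genes passed in HT, 647 of them among the 847. Python 3.11.15 with matplotlib 3.10.9 drew the plots.

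The members and gene lists were chosen with earlier results of these data known. Genes named without remark are Ank2 and lithium-inhibited enzymes, the 12 largest rises and falls, the called or leading members of each list by p, and the leading genes of each difference. Alternatives were other scalings (a common sum, and the trimmed mean of M values, TMM), filters and pseudocounts. Further ones were length and GC trends removed, a replicate block, the 20 HT lithium and HT vehicle libraries alone, and leaving out each of these 20. Some genes that the rule for named genes takes are not reported here.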

Additional observations from a re-analysis of the deposited data

Results flagged for a closer look

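In each of 362 groups of 10 libraries (a gene's values or a list's levels in HT lithium or HT vehicle libraries), the gap between the outermost library and its neighbour was set against the whole range. In 40 groups, it passed the 95% limit, and chance passes about 1 in 20 groups. In 28 of the 40 the outermost library was the one labelled HT vehicle female replicate 1. It lay above the other 9 vehicle libraries for Impad1 at 5654, Klf10 at 1828, Ier5 at 2246, Plk3 at 486, Ier5l at 325, Pcsk1 at 2269.9, Dusp6 at 3574, Spry4 at 634, Per1 at 4000.3, Plcb1 at 11026, Nr1d1 at 3521, Bhlhe40 at 4534, Dyrk1a at 3003, Jade2 at 1732. It lay below them for Pnck at 1242, Ctnnb1 at 17083, Mt1 at 2006, Rps18 at 2862, Rpl10a at 1764, Rps14 at 3671, Elob at 2003, Cops9 at 754, Mapk3 at 3041. Among lists, its level was high for the circadian clock (0.189) and for glutamate receptors (0.064), and low for ribosomal proteins (-0.238) and nuclear oxidative phosphorylation (-0.233), and its length slope of 0.0748 was the highest of its group. The main test kept this library.

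The other 12 flags were spread over other libraries. Among genes they were Inpp1 at 1254 in HT vehicle male replicate 2, Cd180 at 61.7 in HT vehicle male replicate 1, Xaf1 at 55.4 in HT vehicle female replicate 2, Hspa1a at 347 in HT vehicle female replicate 2, Tap1 at 184 in HT vehicle male replicate 4, Kcnc1 at 5639 in HT lithium female replicate 2, Ank3 at 11879.5 in HT lithium male replicate 2, mt-Nd6 at 923 in HT vehicle female replicate 3. Among lists, myelin was low (-0.630) in HT lithium male replicate 2, fibroblasts and meninges low (-0.564) in HT vehicle male replicate 1, the striatum list high (1.61) in HT lithium male replicate 1, and the thyroid hormone list low (-0.110) in the same library. No gene separated lithium from vehicle in opposite directions in HT and WT.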

How the results depend on the processing

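Of 133 genes followed, 83 were called. All 83 kept their direction in 32 settings, and 44 stayed called in every one. Without the library labelled HT vehicle female replicate 1, 80 stayed called. Among genes described above, Dctn1 lost its call in 23 of the 32 settings, and Ccdc163, Hspa1a and Rsad2 in 18 each. Nr4a3, Pcsk1, Gabbr1 and Unc13b lost it in 17 each, C1ra in 15, Dyrk1a and Ltbp2 in 14 each, and Htr6 in 13. Leaving out 1 library at a time gave 356 to 1597 calls in HT, 192 to 1669 in females, 1 to 29 in males and 0 to 21 in the difference between sexes; 7 to 21 early, 3 to 7 ERK feedback, 3 to 12 channel and 1 to 8 presynaptic genes rose, 19 to 59 ribosomal protein genes fell, and the length slope difference was 0.0182 to 0.0319. Without a filter on low values, calls numbered 448 in HT, 483 in females and 212 in WT, with 3 channel and 2 presynaptic genes, more genes being tested. With length and GC trends removed there were 469 calls in females, 7 in males, 16 ribosomal and 2 presynaptic genes. A common sum gave 1 call each in the difference between sexes and in HT minus WT. The 20 HT lithium and HT vehicle libraries alone gave 1 call between sexes, 1 ERK feedback and 15 channel genes. Added after the data were seen, leaving out the 4 libraries that stand apart gave 1608 calls in females, 8 in males, 4 between sexes and 55 ribosomal genes; marker levels as covariates gave 35 in males and 2 between sexes. The cause of these shifts was not tested. TMM scaling, other pseudocounts, limma without the robust step and a mean of at least 50 kept the main counts within 1.5 times. Depth limited the genes with a mean under 10, which the main test left out.

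Replicate numbers did not pair the libraries: correlations of same-numbered HT lithium and HT vehicle libraries ran from -0.14 to 0.12, 2 of 10 pairs were over 0.1, and 3 of 10 libraries correlated best with their own number. With the replicate number as a block, 836 genes were called in HT, 437 higher and 399 lower.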

Other observations

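Of 26 inhibitory neuron markers, 1 rose and 0 fell, against 2.75% of all genes risen, and the median log2 change was -0.042. The 1 was Pvalb, the calcium buffer of fast-spiking interneurons. It was at 596, 719 and 1000.2 in HT lithium libraries, against 421, 598 and 703 in HT vehicle libraries (0.43 ± 0.10 (SE), adjusted p = 0.0058), and passed in WT as well (0.46, adjusted p = 0.0043). Of the other markers, Gad1, a GABA-synthesising enzyme, had -0.14 ± 0.14 (SE), adjusted p = 0.60 and Sst, the peptide somatostatin, 0.10 ± 0.090 (SE), adjusted p = 0.56. Of 15 perineuronal net genes, 2 rose and 0 fell (median -0.052). Hapln4, a link protein of these nets, was at 2081, 2357 and 2952 in HT lithium libraries, against 1284, 1715 and 2566 in HT vehicle libraries (0.49 ± 0.10 (SE), adjusted p = 0.0018). Adamts8, a matrix protease, was the other gene called (0.29 ± 0.078 (SE), adjusted p = 0.020).

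Cirbp, a cold-inducible RNA-binding protein, was at 1121, 1349 and 1688 in HT lithium libraries, against 1673, 1794 and 2099.8 in HT vehicle libraries (-0.42 ± 0.076 (SE), adjusted p = 0.00088), with 9 of 10 lithium libraries below every vehicle library. Rbm3, its relative, picked after its values were seen, fell, with a log2 change of -0.24 ± 0.058 (SE), adjusted p = 0.010. Of 28 heat shock and unfolded protein response genes, 3 rose and 0 fell (median 0.070), against 2.75% of all genes risen. The 3 were Hsph1 (0.23 ± 0.052 (SE), adjusted p = 0.0067), Dnajb5 (0.28 ± 0.071 (SE), adjusted p = 0.013) and Hspa1a (0.32 ± 0.10 (SE), adjusted p = 0.046), all chaperones or co-chaperones. Hspa1a was at 0.30 (adjusted p = 0.053) without the library labelled HT vehicle female replicate 1. In WT, Cirbp had -0.28 (adjusted p = 0.033) and Hsph1 0.083 (adjusted p = 0.52). Genes called from other lists included Amd1, of polyamine synthesis (0.14 ± 0.034 (SE), adjusted p = 0.0084), Htr6, a serotonin receptor (0.41 ± 0.12 (SE), adjusted p = 0.038), Hsd17b7, of cholesterol synthesis (0.22 ± 0.053 (SE), adjusted p = 0.0092), and Flywch2 (-0.31 ± 0.084 (SE), adjusted p = 0.025).

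Further genes of small p were picked after the values were seen. Colgalt1, which adds galactose to collagen, was at 1618, 1742 and 1977 in HT lithium libraries, against 1883, 2074 and 2138 in HT vehicle libraries (-0.22 ± 0.031 (SE), adjusted p = 1.4e-05), and fell in WT (-0.22 ± 0.031 (SE), adjusted p = 2.9e-05). Jade2 was at 1410.0, 1542 and 1859.6 in HT lithium libraries, against 985, 1137 and 1732 in HT vehicle libraries (0.42 ± 0.061 (SE), adjusted p = 2.1e-05). Map2k3, a kinase upstream of p38, rose by 0.36 ± 0.053 (SE), adjusted p = 3.3e-05, Pfkfb3, a regulator of glycolysis, by 0.37 ± 0.072 (SE), adjusted p = 0.0016, and Mpp3, a membrane scaffold, by 0.28 ± 0.048 (SE), adjusted p = 0.00044. Srrm2, a scaffold of nuclear speckles, fell, with a log2 change of -0.30 ± 0.053 (SE), adjusted p = 0.00071.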
